A study of Homo sapiens with 6 samples.

Results

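Sprouty and SPRED genes, the PEA3 factor genes and PHLDA1 are transcribed in response to signalling through the kinase ERK, and their messenger RNA is commonly read as a measure of ERK output. The 8 genes described here, SPRY1, SPRY2, SPRY4, SPRED1, SPRED2, ETV4, ETV5 and PHLDA1, were chosen by symbol from the 26255 genes listed in each file, and all 8 were found. They were measured in HT29, an established human cell line of colorectal adenocarcinoma origin, which carries an activating BRAF mutation. The cells spent 24 h in YM155, a small molecule reported to lower the expression of the survivin gene BIRC5, or in its solvent DMSO, and 3 libraries were made for each treatment. The dose is not given in the sources used here. All samples come from 1 cell line, and the labels do not say whether the 3 libraries of a group came from separate cultures, so p-values reflect the scatter of these samples only, part of which may be technical.

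In the pathway, growth factor receptors load RAS with GTP through adaptor proteins, and RAS then activates RAF, MEK and ERK in turn. Sprouty proteins (SPRY1, SPRY2, SPRY4) restrain signalling from receptors to ERK, and SPRED proteins bring neurofibromin, which switches RAS off, to the membrane. Because ERK raises the transcription of these genes, they form a negative feedback loop. ETV4 and ETV5 are ETS transcription factors of the PEA3 group, which the repressor Capicua (CIC) keeps low until ERK signalling relieves it. PHLDA1 encodes a pleckstrin homology-like protein that growth factors induce.

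Values are FPKM (fragments per kilobase of transcript, adjusted for library size), so levels of different genes can be compared. The files hold no read totals. The steps between low FPKM values put the depth of DMSO replicates 2 and 3 at 1.00 and 0.898 times that of DMSO replicate 1, and that of YM155 replicates 1 to 3 at 0.561, 0.656 and 0.572 times. If values were not scaled between libraries, which is not known, scarce transcripts were less well sampled in the YM155 libraries. The FPKM of all genes added up to 538478 to 563296 per DMSO library and 678699 to 696067 per YM155 library, a ratio of the means of 1.25. Replicates of a group correlated at 0.992 to 0.994 across genes, libraries of different groups at 0.86 to 0.878. BIRC5 was at 21.8 ± 0.940 FPKM under DMSO and 6.36 ± 0.671 FPKM under YM155 (SD, n = 3). Of 11 markers of colonic epithelium, 10 passed the filter on low values. Of these, CDX2 passed through the DMSO libraries alone (3.20 ± 0.456 FPKM under DMSO and 0.839 ± 0.144 FPKM under YM155). CDH17 passed through the YM155 libraries alone (0.738 ± 0.0774 and 2.37 ± 0.160 FPKM). KRT8 was at 1962 ± 56.7 FPKM and EPCAM at 276 ± 23.1 FPKM under DMSO, whereas CDX1 was near 0 (0.146 ± 0.0333 FPKM). The 5 fibroblast markers summed to 0.103 to 0.345 FPKM per library and the 4 endothelial markers to 0.0495 to 0.250 FPKM. Of the 5 leukocyte markers, LYZ alone held nearly the whole sum, at 1956 ± 135 FPKM under DMSO and 2004 ± 72.6 FPKM under YM155, while PTPRC, which defines leukocytes, was at most 0.0172 FPKM in any library.

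The 8 genes did not move together after YM155. PHLDA1, SPRED1, ETV5 and SPRED2 rose, SPRY2, SPRY4 and ETV4 fell, and SPRY1 did not pass the test. The comparison used limma on log2(FPKM + 1) with Benjamini-Hochberg adjustment over 12035 tested genes and a threshold of 0.05. Rises were therefore seen for 4 of the 8 (43.6% of all tested genes rose) and falls for 3 of the 8 (41.0% of all tested genes fell), so the share of the 8 that changed in each direction was near that of all genes. That split moved with scaling, from 5251 genes higher and 4940 lower to 4171 and 6190 with upper-quartile scaling and to 3804 and 6506 with common-sum scaling. Median-of-ratios scaling gave 5432 higher and 4766 lower. The groups did not overlap for 7 of the 8, against 85.9% of all tested genes. The median log2 fold change of the 8 was 0.17, beside 0.02 over all tested genes. All 8 had a mean of at least 5 FPKM. Over the 8575 genes at that level the median was 0.19, with 4419 higher and 2922 lower. Set against 0.19, SPRED2 was at 0.04 and SPRY1 at -0.07. The shares of all tested genes given beside other lists below include scarcer genes as well. In bulk RNA, fewer cells of a type and less RNA per cell cannot be told apart.

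Among the feedback inhibitors, SPRY2 showed the largest fall of the 8 genes. It was at 30.7, 29.8 and 32.3 FPKM in the 3 DMSO libraries and at 13.2, 12.03 and 12.1 FPKM in the 3 YM155 libraries. Every YM155 library was below every DMSO library, and the mean was 2.49-fold lower (30.9 ± 1.22 against 12.4 ± 0.629 FPKM, SD, n = 3; adjusted p = 6e-08 by limma, for a log2 fold change of -1.25 with SE 0.06). Only 6.66% of tested genes had a lower log2 fold change than SPRY2.

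SPRY4 was at 30.9, 30.3 and 30.1 FPKM under DMSO and at 20.9, 18.9 and 21.02 FPKM under YM155. The groups did not overlap, and the mean was 1.503-fold lower (30.4 ± 0.403 against 20.3 ± 1.21 FPKM, SD, n = 3; adjusted p = 8.2e-06 by limma, for a log2 fold change of -0.57 with SE 0.05). SPRY4-IT1, a non-coding transcript from an intron of SPRY4 that was chosen after its values were seen, was at 3.67 ± 0.378 FPKM under DMSO and 2.40 ± 0.685 FPKM under YM155. Whether strand was used in the quantification is not given, so the share of reads between overlapping transcripts is uncertain.

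SPRY1 was the scarcest of the 3 Sprouty genes under DMSO. It was at 7.93, 6.46 and 7.77 FPKM under DMSO and at 8.15, 8.45 and 7.63 FPKM under YM155. The groups overlapped, and the log2 fold change of 0.12 had a 95% interval of -0.07 to 0.30 (adjusted p = 0.2 by limma), so a small change in either direction was not told apart from none. Its sign turned with upper-quartile scaling (-0.10) and common-sum scaling (-0.17). SPRY3, the remaining family member, was at most 0.0224 FPKM in any library and was not tested.

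SPRED1 moved opposite to SPRY2 and SPRY4. Its level was 7.10, 6.23 and 7.83 FPKM under DMSO and 13.9, 16.9 and 16.6 FPKM under YM155. No libraries of the groups overlapped, and the mean was 2.24-fold higher (7.05 ± 0.806 against 15.8 ± 1.65 FPKM, SD, n = 3; adjusted p = 5.7e-06 by limma, for a log2 fold change of 1.06 with SE 0.10). SPRED2, the more abundant of the pair, was at 19.9, 18.6 and 21.1 FPKM under DMSO and at 22.2, 25.9 and 22.5 FPKM under YM155. The groups did not overlap, but the gap between them was smaller than the SD of either, and the mean was 1.18-fold higher (19.9 ± 1.22 against 23.5 ± 2.04 FPKM, SD, n = 3; adjusted p = 0.013 by limma, for a log2 fold change of 0.23 with SE 0.07). That call ended with upper-quartile, common-sum and quantile scaling, where the log2 fold change was -0.0085, -0.0773 and -0.0682, and without DMSO replicate 2 (0.19, adjusted p = 0.05). It held with median-of-ratios scaling (0.27, adjusted p = 0.0073 by limma). SPRED3 was at 1.02 ± 0.118 FPKM under DMSO and 0.964 ± 0.0339 FPKM under YM155 and did not pass the filter on low values.

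The PEA3 factor genes split. ETV4, the most abundant of the 8 genes under DMSO, was at 51.9, 52.8 and 56.8 FPKM there and at 37.2, 34.4 and 37.3 FPKM under YM155. All YM155 libraries were lower, by 1.48-fold in the mean (53.8 ± 2.59 against 36.3 ± 1.65 FPKM, SD, n = 3; adjusted p = 8.6e-06 by limma, for a log2 fold change of -0.56 with SE 0.05). ETV5 was at 7.75, 8.40 and 8.43 FPKM under DMSO and at 16.4, 16.95 and 18.7 FPKM under YM155. All YM155 libraries were higher, by 2.12-fold in the mean (8.20 ± 0.382 against 17.4 ± 1.21 FPKM, SD, n = 3; adjusted p = 7.1e-07 by limma, for a log2 fold change of 1.00 with SE 0.07). ETV1, the third gene of the group, was scarce and fell, from 1.53 ± 0.170 to 0.338 ± 0.0929 FPKM (log2 fold change -0.92, adjusted p = 1.1e-05 by limma), though it passed the filter through the DMSO libraries alone.

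PHLDA1 changed most. It was at 19.1, 18.7 and 21.9 FPKM under DMSO and at 129, 145 and 136 FPKM under YM155. The lowest YM155 library was several times above the highest DMSO library, and the mean was 6.85-fold higher (19.9 ± 1.72 against 137 ± 8.38 FPKM, SD, n = 3; adjusted p = 2.1e-09 by limma, for a log2 fold change of 2.72 with SE 0.07). Only 1.24% of tested genes had a higher log2 fold change. Its relatives moved the same way. PHLDA2 was at 92.0 ± 3.59 FPKM under DMSO and 541 ± 29.2 FPKM under YM155 (5.88-fold higher, adjusted p = 6.6e-10 by limma), and PHLDA3, a p53-responsive gene whose protein restrains AKT, was at 4.55 ± 0.277 and 19.8 ± 1.73 FPKM (4.35-fold higher, adjusted p = 3e-08 by limma).

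**Figure D1:**
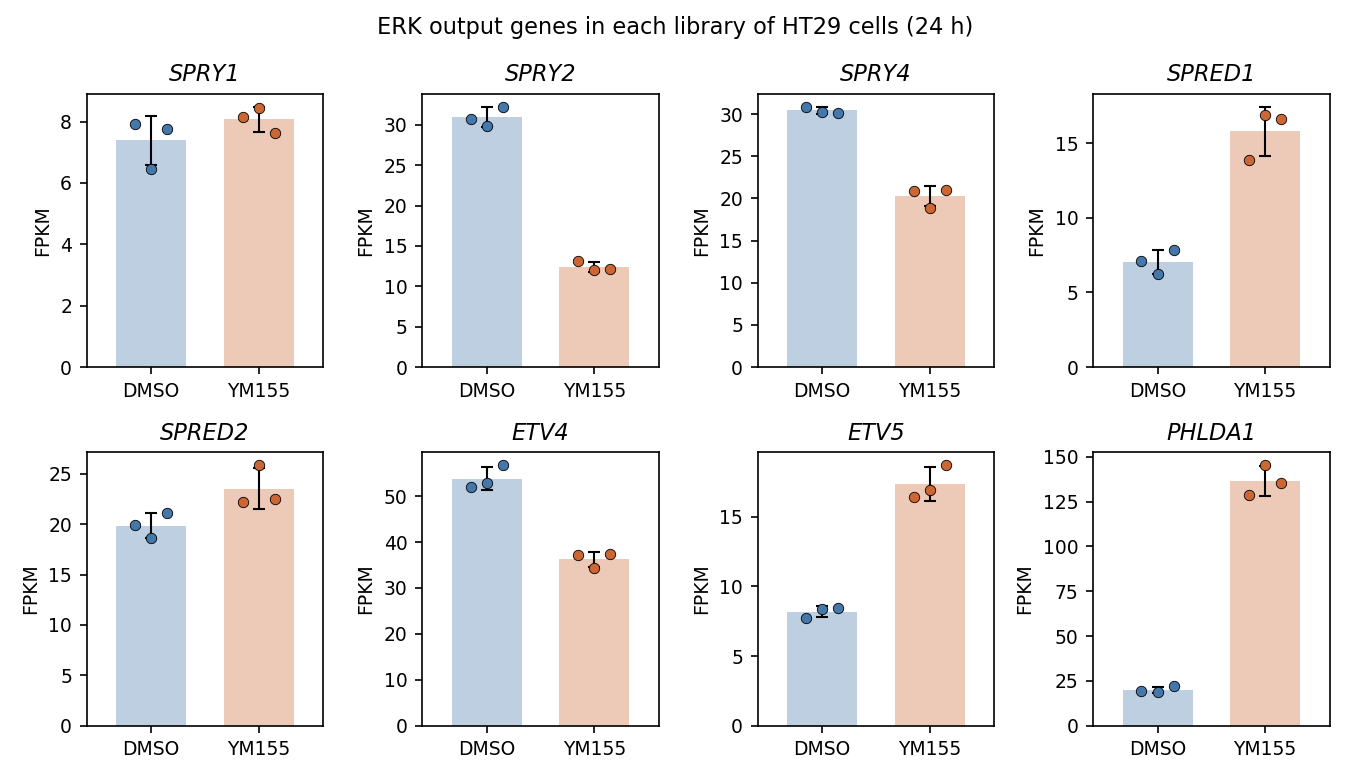
FPKM of each of the 8 genes in the 3 DMSO and 3 YM155 libraries (points), with the group mean (bar) and SD (error bar) on linear axes that start at 0. The points of the groups overlap for SPRY1 alone, and PHLDA1 goes from 19.9 to 137 FPKM in the mean.

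The order of the 8 genes by level changed with treatment. Under DMSO, ETV4 stood first, followed by SPRY2 and SPRY4, whose libraries overlapped, then by PHLDA1 and SPRED2, which overlapped too. ETV5, SPRY1 and SPRED1 came last, each overlapping its neighbour in the order. Under YM155, PHLDA1 stood first, followed by ETV4, SPRED2, SPRY4, ETV5, SPRED1, SPRY2 and SPRY1, and among these neighbours ETV5 and SPRED1 alone overlapped. SPRY2 thus went from second to seventh place in FPKM.

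Scaling between libraries shifted every gene but turned the sign of SPRY1 and SPRED2 alone. The median log2 fold change of all tested genes was 0.02 with the deposited values and -0.20, -0.27 and -0.08 with upper-quartile, common-sum and quantile scaling. Over these scalings PHLDA1 lay between 2.35 and 2.47, SPRED1 between 0.77 and 0.94, and ETV5 between 0.70 and 0.83. SPRY2 lay between -1.56 and -1.49, SPRY4 between -0.88 and -0.81, and ETV4 between -0.96 and -0.80. Set against that median, SPRY2 was at -1.27, ETV4 at -0.58, SPRED2 at 0.21 and PHLDA1 at 2.69 with the deposited values, and at -1.44, -0.88, 0.0147 and 2.44 with quantile scaling. Upper-quartile and common-sum scaling multiply a library by 1 factor and so leave this distance nearly fixed (SPRED2 at 0.20 and 0.19).

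**Figure D2:**
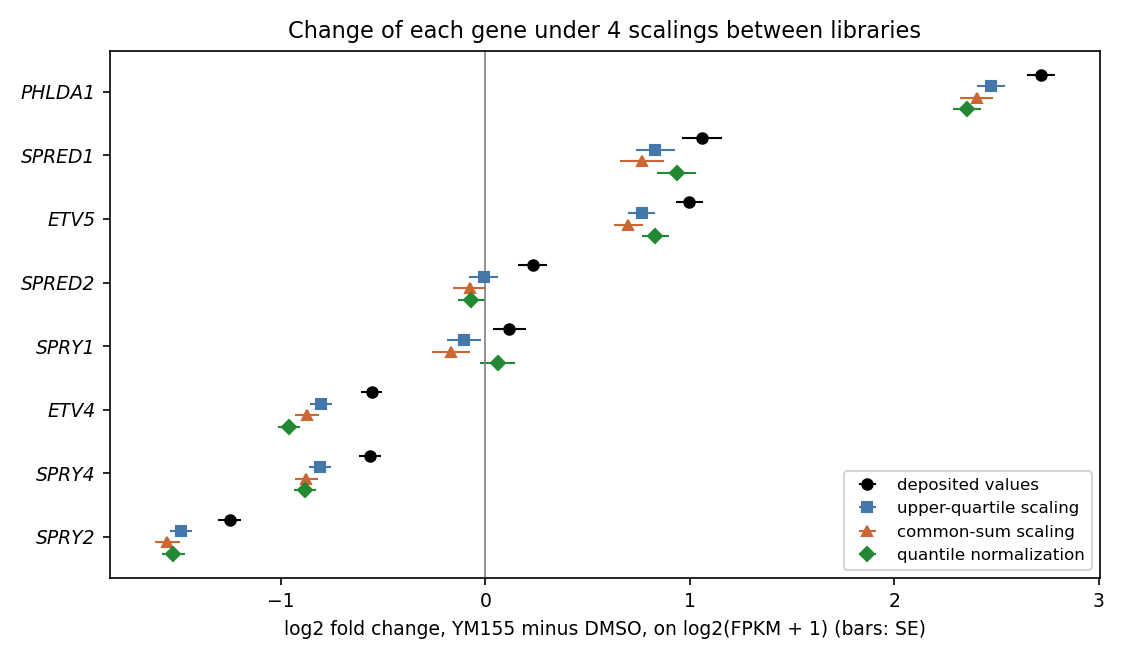
Log2 fold change of each gene (YM155 minus DMSO, on log2(FPKM + 1), bars are SE from limma, 3 libraries a group) with the deposited values and with upper-quartile, common-sum and quantile scaling. Median-of-ratios scaling is not drawn. PHLDA1, SPRED1 and ETV5 stay right of 0 and SPRY2, SPRY4 and ETV4 stay left of it, whereas SPRED2 and SPRY1 cross it.

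The make-up of each family differed between the groups. Shares within a library do not depend on a scaling factor between libraries. ETV4 made up 87.0%, 86.3% and 87.1% of the summed FPKM of ETV4 and ETV5 in the DMSO libraries and 69.4%, 67.0% and 66.6% in the YM155 libraries. The ratio of ETV4 to ETV5 was 6.57 ± 0.247 under DMSO and 2.09 ± 0.147 under YM155 (SD, n = 3), and their sum was 62.0 ± 2.86 and 53.6 ± 2.36 FPKM. With the deposited values the sum thus moved 1.16-fold while the ratio moved 3.14-fold. Unlike the ratio, the sum of any family depends on the scaling between libraries, and sums were not computed with other scalings. With common-sum scaling the log2 fold changes of ETV4 and ETV5 were both lower, at -0.87 and 0.70 beside -0.56 and 1.00.

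SPRED1 made up 26.1 ± 1.04% of the summed FPKM of SPRED1 and SPRED2 under DMSO and 40.1 ± 2.06% under YM155, and the sum was 26.9 ± 2.03 and 39.3 ± 3.34 FPKM. Among the Sprouty genes, SPRY2 held 45.0 ± 0.928% of the sum under DMSO and 30.5 ± 0.742% under YM155, SPRY1 10.7 ± 0.900% and 19.8 ± 1.45%, and SPRY4 44.3 ± 1.27% and 49.7 ± 1.81%. SPRY2 and SPRY4, nearly equal under DMSO (ratio 1.02 ± 0.0470), were at a ratio of 0.614 ± 0.0335 under YM155. The summed Sprouty level was 68.8 ± 1.90 FPKM under DMSO and 40.8 ± 1.42 FPKM under YM155, 1.69-fold lower with the deposited values. None of the 14 shares, sums and ratios compared overlapped between the groups, as was so for 85.9% of all tested genes. The 14 are not independent, since a family's shares fix each other and its ratio. They include the ratio of PHLDA1 to SPRY2, whose separation followed from joining the largest rise and the largest fall. Each of the 14 had p = 0.1 by a two-sided exact permutation test (also 0.1 after Benjamini-Hochberg adjustment). That is the smallest p that 3 libraries against 3 can give, so none could pass 0.05.

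**Figure D3:**
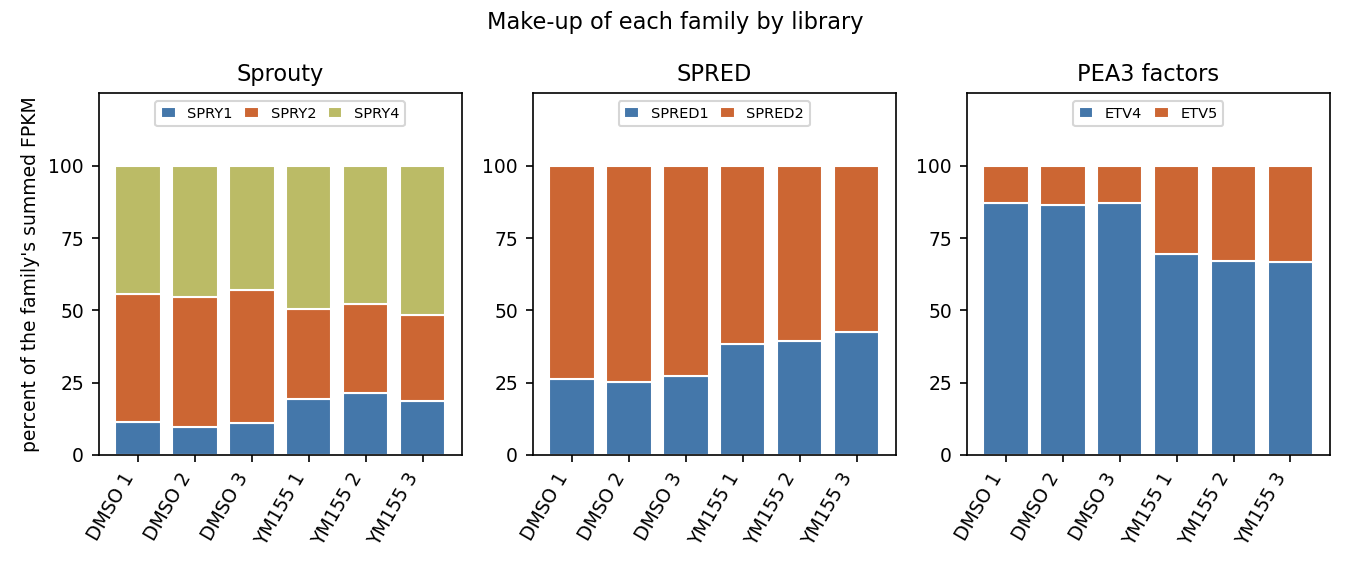
Share (percent, stacked to 100) that each gene held of its family's summed FPKM in each of the 6 libraries. The ETV5 share goes from 13.2% to 32.4% in the mean and the SPRED1 share from 26.1% to 40.1%, while the SPRY2 share goes from 45.0% to 30.5%.

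The start regions of SPRY2 and PHLDA1, which moved furthest in opposite directions, were compared for short motifs. RefSeq (GRCh38.p14) gave windows for 6 of the 8 genes, on 6 chromosomes, 10 windows in all because some genes have several starts. None was at hand for ETV4 or ETV5. These windows are of another build than the hg19 of the quantification and were used for their sequence alone, and which start HT29 cells use was not measured. The 250 bases before each start were searched on both strands for the Capicua octamers TGAATGAA, TGAATGGA, TCAATGAA and TCAATGGA, the ETS core CCGGAA, the AP-1 element TGAGTCA, the cyclic AMP element TGACGTCA, the ATF4 element TGATGCAA and the CArG box of serum response factor. Only the ETS core, to which PEA3 and other ETS factors bind, was found, in 1 window each of SPRY1, SPRY2 and PHLDA1. Of 35116 windows of all genes, 14.5% hold it. That share is not matched for base content. G and C made up 68.0% (SPRY1), 70.4% (SPRY2) and 70.4% (PHLDA1) of the windows with the core, beside a median of 58.0% over all windows. The SPRY2 window lies at chr13:80341127-80341376 on the minus strand, just upstream of the outermost of its RefSeq starts, and is shown whole with the ETS core in capitals.
SPRY2: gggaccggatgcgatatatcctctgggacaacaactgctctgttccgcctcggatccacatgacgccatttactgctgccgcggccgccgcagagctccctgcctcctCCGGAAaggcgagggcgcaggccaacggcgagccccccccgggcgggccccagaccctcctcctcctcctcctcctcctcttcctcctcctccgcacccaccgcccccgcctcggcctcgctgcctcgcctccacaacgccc

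For PHLDA1 and SPRY1 the 30 bases around the core are shown, since GENCODE release 29 places exons of these genes in their windows. The PHLDA1 stretch is chr12:76031848-76031877 on the minus strand, where the core reads TTCCGG because it lies on the opposite strand, 89 bases before the start. The SPRY1 stretch is chr4:123398307-123398336 on the plus strand, before its second start. The 3 are set side by side because they hold the same core. PHLDA1 rose, SPRY2 fell and SPRY1 did not pass the test, and whether the core bears on the change was not tested.
PHLDA1: gaggagaggagtTTCCGGggctcgggtccg
SPRY1: tgccctccgcagCCGGAAgggggccgcggg
SPRY2: tccctgcctcctCCGGAAaggcgagggcgc

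Genes whose profiles over the 6 libraries were most like those of the member of each family with the highest mean FPKM over all 6 libraries were taken by the root mean square difference of log2(FPKM + 1), each profile centred on its DMSO mean, among 8552 other genes with a mean of at least 5 FPKM. For the Sprouty genes this was SPRY4, although SPRY2 had the slightly higher mean under DMSO. Nearest to SPRY4 were ADH5 (0.0172), MAOA (0.0245) and CHAMP1 (0.0255). Nearest to ETV4 were MARCKSL1 (0.0221), ZNF395 (0.0309) and ERI3 (0.0323), and nearest to SPRED2 were PLK4 (0.0269), RBM47 (0.0326) and UBTD2 (0.0326). PHLDA1 had less close neighbours, RRAGC (0.0504), TSC22D2 (0.0565) and ARRDC3 (0.0626). RRAGC, a Rag GTPase gene of nutrient sensing, went from 6.77 to 50.6 FPKM in the mean. No other member of the 8 was among these neighbours, but only the few nearest genes were kept, so members with like profiles could be missed. SPRY4 and ETV4 had nearly the same log2 fold change (-0.57 and -0.56).

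Other genes that ERK signalling induces also included some that rose and some that fell. Of 16 such genes 14 were tested, of which 9 rose and 5 fell (64.3% and 35.7%, beside 43.6% and 41.0% of all tested genes), with a median log2 fold change of 0.75 beside 0.02. One of the 9, TNC, encoding tenascin C and named after its values were seen, passed the filter on low values through the YM155 libraries alone, which fixed its direction. DUSP5, a phosphatase of nuclear ERK, was 65.3-fold higher (7.95 ± 0.156 against 519 ± 13.6 FPKM), FOSL1, an AP-1 subunit, 7.84-fold, MAFF 5.98-fold and DUSP4 4.41-fold higher. The 5 that fell, named after their values were seen, included the immediate early genes EGR1 (187 ± 16.1 to 40.8 ± 8.80 FPKM) and FOS (171 ± 21.4 to 39.6 ± 8.07 FPKM). DUSP6, a phosphatase of cytoplasmic ERK, was at 28.2 ± 1.32 FPKM under DMSO and 14.6 ± 0.344 FPKM under YM155, a fall of 1.93-fold between those of SPRY2 and SPRY4. CCND1, encoding cyclin D1, and IER3 fell 1.39-fold and 1.31-fold. The genes named in this paragraph kept their direction and call under the 4 scalings tried, while the number that rose was 8 with quantile scaling.

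Of 13 genes of the cascade from RAS to ERK 12 were tested, and all 12 passed as higher (43.6% of all tested genes did), with a median log2 fold change of 0.72 beside 0.02 over all tested genes. KSR1, a scaffold gene of the cascade named after its values were seen, passed the filter on low values through the YM155 libraries alone, so its direction was fixed by the filter. BRAF, encoding the kinase mutated in this line, had the lowest p and rose 6.09-fold, from 3.67, 3.83 and 3.26 FPKM to 21.7, 23.2 and 20.7 FPKM (adjusted p = 6.6e-09 by limma). ARAF rose 2.08-fold and MAP2K1, encoding MEK1, 1.91-fold. With upper-quartile scaling 11 of the 12 passed as higher, with common-sum or quantile scaling 9, and none passed as lower with these scalings.

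Of 9 receptor genes tested 6 fell and 3 rose (median log2 fold change -0.56), beside 41.0% lower and 43.6% higher among all tested genes. IGF1R, one of the 3 and named after its values were seen, did not pass with upper-quartile or common-sum scaling, and its direction turned with the latter (-0.000585). EGFR rose 6.51-fold, from 5.15 ± 0.348 to 33.6 ± 2.33 FPKM, and MET, the hepatocyte growth factor receptor gene, 1.83-fold. FGFR3 fell 3.48-fold and ERBB3 1.97-fold, the latter from 114 ± 3.04 to 57.8 ± 4.97 FPKM. Among 10 adaptor and RAS activator genes 8 rose and 1 fell (median log2 fold change 0.67), beside the same 43.6% and 41.0%. With upper-quartile and common-sum scaling 6 rose, since GRB2 and SOS2, named after their values were seen, did not pass, and GRB2 turned to -0.0343 with quantile scaling, where it did not pass. GAB2 rose 6.66-fold, SHC1 2.75-fold, PTPN11, encoding the phosphatase SHP2, 1.72-fold and CRKL 1.67-fold, whereas FRS3 was at 1.95 ± 0.244 and 1.94 ± 0.273 FPKM and did not pass, except as higher with quantile scaling.

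Of 10 other genes that restrain RAS and RAF 5 rose and 4 fell (median log2 fold change 0.43), near the shares of all tested genes (43.6% and 41.0%). NF1, encoding the neurofibromin that SPRED proteins bind, rose 2.09-fold, from 18.9 ± 1.201 to 39.4 ± 2.83 FPKM, and the RAS GTPase-activating genes RASA3 and RASA1 rose 3.34-fold and 2.92-fold. PEBP1, the RAF kinase inhibitor protein, fell 2.34-fold, from 153 ± 1.30 to 65.2 ± 3.05 FPKM. RASAL1 did not pass (2.37 ± 0.157 and 2.89 ± 0.351 FPKM), except as higher with median-of-ratios and quantile scaling.

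All 8 genes of Sprouty partners and regulators rose, under all 4 scalings too (median log2 fold change 1.07), beside 43.6% of all tested genes. CAV1 was scarce (1.03 ± 0.0819 and 2.27 ± 0.123 FPKM) and met the filter on low values only because of its YM155 libraries, which favoured a rise. With a mean of at least 5 FPKM required, 7 passed as higher. The ubiquitin ligase genes CBL and SIAH2, whose proteins target Sprouty for degradation, rose 6.36-fold (6.37 ± 0.210 to 40.5 ± 3.32 FPKM) and 2.97-fold. The kinase genes TESK1, DYRK1A and MKNK1 rose 2.93-fold, 2.55-fold and 1.96-fold. CAV1, PPP2CA and PPP2R1A, encoding caveolin-1 and subunits of protein phosphatase 2A, rose 2.197-fold, 1.81-fold and 1.61-fold.

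CIC, encoding the Capicua repressor of PEA3 genes, rose 2.204-fold, from 13.1 ± 0.884 to 28.9 ± 1.18 FPKM, and its partners ATXN1L and ATXN1 rose 2.06-fold and 1.94-fold. Of the genes of the ubiquitin ligase that degrades PEA3 factors, COP1 (listed as RFWD2) rose 1.44-fold and DET1 fell 1.28-fold. DDB1 rose 1.10-fold, but fell with upper-quartile, common-sum and quantile scaling, and CUL4A did not pass (38.1 ± 0.781 and 35.5 ± 0.793 FPKM), though it fell under the same 3 scalings. Of 8 reported targets of PEA3 factors 4 were tested. MMP1 rose from 0.266 ± 0.0645 to 9.69 ± 0.700 FPKM, passing the filter through the YM155 libraries alone, and MMP14 fell from 10.4 ± 0.433 to 3.49 ± 0.452 FPKM. MMP7 was at 321 ± 17.8 and 392 ± 10.7 FPKM and passed as higher (log2 fold change 0.29), but did not pass with upper-quartile scaling (0.0350), and its direction turned with common-sum and quantile scaling (-0.0368 and -0.22). ICAM1 did not pass (1.99 ± 0.227 and 2.39 ± 0.134 FPKM), except as higher with median-of-ratios and quantile scaling.

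**Figure D4:**
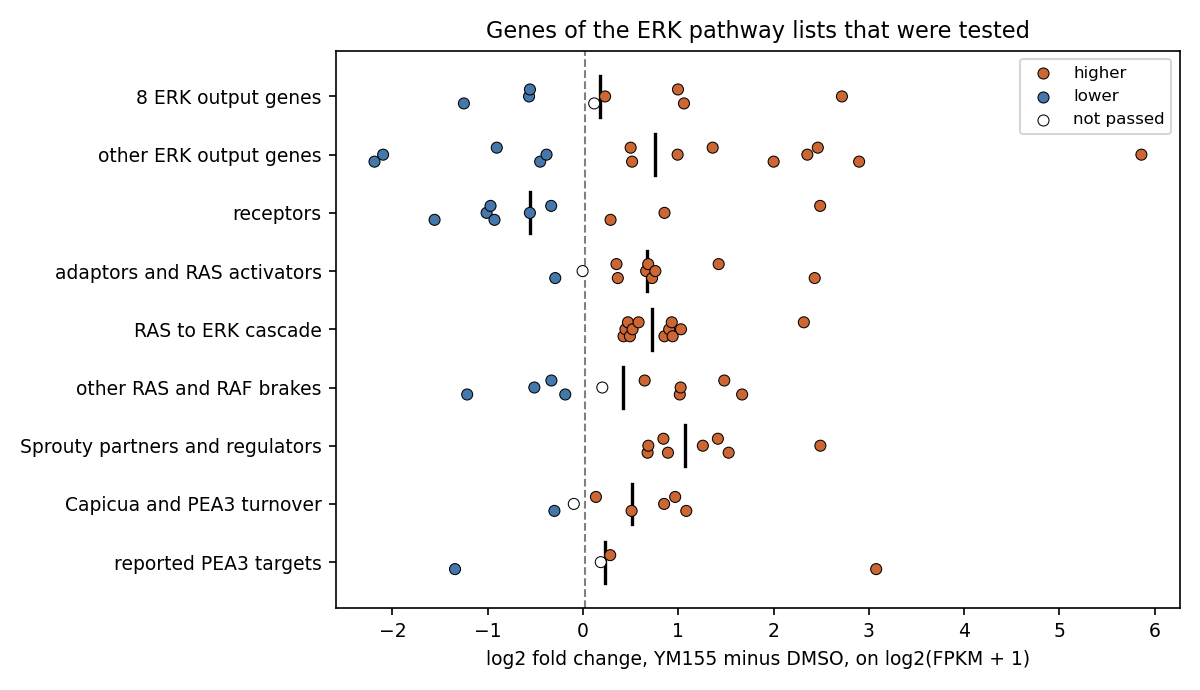
Log2 fold change (YM155 minus DMSO, on log2(FPKM + 1)) of each tested gene of 9 lists, coloured by its limma call, with the list median (black bar) and the median of all tested genes (dashed line, 0.02). The 8 genes described here span -1.25 to 2.72, while all 12 tested cascade genes lie above 0.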

How the data were processed

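Total RNA of HT29 cells was sequenced from stranded mRNA libraries, per the labels' protocols, with 3 libraries for each of DMSO and YM155. The treatment label says YM155 and the titles YM115. The authors deposited 1 table of FPKM values per library, with 26255 genes. Per the submitters' processing notes, Cufflinks 2.2.1 and Cuffdiff were used with the aligner TopHat2 2.1.1, Bowtie2 2.3.5.1 and SAMtools 1.2 on build hg19. The sources used here give no settings, annotation or library size method, so values may already be scaled between libraries, and genes with overlapping or similar copies are uncertain. Median-of-ratios factors of the deposited values ran from 0.9889 (YM155 replicate 2) to 1.023 (DMSO replicate 2). Upper-quartile factors ran from 0.9157 (DMSO replicate 1) to 1.095 (YM155 replicate 2). Which scaling the deposited values carry was not tested.

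Genes with at least 1 FPKM in at least 3 of 6 libraries were compared with limma 3.58.1 in R 4.3.3 (lmFit, eBayes with trend, two-sided, no replicate block) on log2(FPKM + 1), which understates changes of scarce transcripts. The fit was also run on simulated data with far fewer changed genes than were called here. That run cannot show how the fit behaves with changes this widespread. Folds are ratios of mean FPKM. Relative depth was the most common ratio of low FPKM values (under 0.3) between libraries. Replicates shared at most 0.0914% identical values among tested genes, so none were merged.

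The 8 genes, the other lists and the naming rule were chosen with earlier results of these data known. The rule named all 8 genes and their close relatives, all tested genes of lists with up to 8, and otherwise the 4 with the lowest p and the most abundant that did not pass. One gene that the rule named is not reported here. Alternatives were other pseudocounts (0.1, 0.5), filters, scalings, variance models, a replicate block, leaving out each library and a threshold of 0.01. Upper-quartile scaling used genes above 0 in any library.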

Additional observations from a re-analysis of the deposited data

How the results depend on the processing

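The calls of SPRY2, SPRY4, SPRED1, ETV4, ETV5 and PHLDA1 kept their direction and stayed past the threshold under all 18 alternatives tried. SPRED2 had log2 fold changes of -0.0085, -0.0773 and -0.0682 with upper-quartile, common-sum and quantile scaling, and its value of 0.23 did not pass at a threshold of 0.01. Without each library in turn it lay between 0.16 and 0.27, and its call ended without DMSO replicate 2 (0.19, adjusted p = 0.05 by limma). SPRY1 turned to -0.10 and -0.17 with upper-quartile and common-sum scaling. Of all tested genes 5251 rose and 4940 fell, against 4171 and 6190 with upper-quartile scaling, 3804 and 6506 with common-sum scaling, and 4419 and 2922 with a mean of at least 5 FPKM, which tests fewer genes. With ETV1 in the sum the ETV4 share moved by -17.5 percentage points in place of -19.2. Titles number the libraries 1 to 3 in both groups, but same-numbered libraries did not deviate together (r of -0.071, -0.148 and -0.125). With the replicate block 4 of the 8 genes still rose and 3 fell, and 5147 and 4861 of all genes. Depth, as read from the steps between low FPKM values, was lower with YM155, though scaling between libraries could alter that estimate. All 8 genes were above 6 FPKM in every library.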
